A study of Mus musculus with 4 samples.

Results

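The members are 50 genes of the mitotic cell cycle, chosen by name and split by the stage of the cycle at which their products act: 9 G1 cyclins, kinases and E2f1, 13 S phase replication genes and 28 G2/M mitotic genes. Of the 50, 43 had an entry of their own in all 4 tables, against 17856 coding genes in all that did. These 43 were 9 G1, 10 S phase and 24 G2/M genes. Another 5 (Mcm7, Bub1, Top2a, Ube2c and Foxm1) shared an entry with a neighbouring gene in at least 1 table and are described apart, and Cdt1 and Gins2 were not analysed here. Messenger RNA came from dermal cells of mouse embryos carrying the Axin2-LacZ reporter, sorted by fluorescence into reporter-positive and reporter-negative cells. The 4 groups are foot Axin2-LacZ positive and foot Axin2-LacZ negative (ventral foot skin, E17.5), and back Axin2-LacZ positive and back Axin2-LacZ negative (dorsal back skin, E14.5), with 1 library each. Skin was digested with collagenase and hyaluronidase before sorting. Strain, sex and the pooling of embryos were not given in the sources used here. With 1 library a group there is no replicate check of any difference, and site and stage cannot be told apart in any foot against back comparison.

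D-type cyclins bind Cdk4 and Cdk6 and release E2F factors from the retinoblastoma protein, which starts transcription of cyclin E and of the replication genes. The Mcm helicase, its loaders and the nucleotide enzymes then serve S phase, and cyclin A, cyclin B with Cdk1, mitotic kinases, kinesins and centromere proteins serve G2 and mitosis. In growing skin mesenchyme the S phase and mitotic transcripts are made by cells in cycle, while D-type cyclins also answer to growth signals such as Wnt and fibroblast growth factors. In bulk libraries, fewer cycling cells and less of these RNAs in each cycling cell cannot be told apart.

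Values are FPKM (a fragment count corrected for transcript length and for the size of the library), a level that can be compared between genes, with the lower and upper bound the authors' program gave. Those bounds describe uncertainty inside a library and say nothing of the spread among embryos. Read depth is unknown from these files. Among coding genes of at least 5 FPKM the bounds reached on median to either side by 22.8% of the FPKM in the positive foot library, 14.02% in the negative foot library, 8.90% in the positive back library and 9.84% in the negative back library, so foot values are the less precise. Axin2 itself, the reporter's gene, stood at 9.65 FPKM (7.10 to 12.5) in the positive and 12.9 FPKM (10.2 to 15.3) in the negative foot library, so its deposited level does not follow the foot labels. The bounds overlap and the rescaled log2 ratio was -0.16 ± 0.45, so the transcript does not separate the foot libraries, and positive and negative below mean only the libraries labelled so. The back levels were 4.49 FPKM (3.89 to 5.09) in the positive and 3.13 FPKM (2.63 to 3.64) in the negative library. These deposited bounds do not overlap, but the rescaled log2 ratio was 0.24 ± 0.25, within its error. On the rescaled scale the transcript thus does not clearly separate the back libraries either. All 10 dermal fibroblast markers were detected in every library, summing to 7287 and 6859 FPKM in the positive and negative foot libraries and 4526 and 3211 FPKM in the positive and negative back libraries. The 6 endothelial markers summed to at most 6.32 FPKM in any library, and Pecam1 and Cdh5 were listed at 0 in the foot. The 8 leukocyte markers summed to 0.788 and 2.71 FPKM in the positive and negative foot libraries and 3.98 and 19.6 FPKM in the positive and negative back libraries, with Ptprc listed at 0 in the foot. The 6 mast cell markers summed to 3.15 and 267 FPKM in the positive and negative foot libraries and 25.3 and 87.7 FPKM in the positive and negative back libraries. In each skin 5 of the 6 were below 0 on the rescaled log2 scale, with Cpa3, Tpsb2 and Cma1 at least 2-fold lower in the positive library, and Mcpt4 was listed at 0 in all 4 libraries. Red cell RNA was highest in the negative back library. There the embryonic globin Hbb-y had 9369 FPKM (above its own bounds), more than the fibroblast markers together. It had 10.3 and 6.63 FPKM in the positive and negative foot libraries. In the positive back library it shares an entry with other beta globins, Hbb-b1 and Hbb-b2 among them, that holds 1603 FPKM. The foot entries with Hbb-b1 and Hbb-b2, which leave out Hbb-y, held 885 and 1174 FPKM in the positive and negative libraries. The entry of Hbb-b1 and Hbb-b2 in the negative back library held 3317 FPKM. The alpha globin entry, which holds Hba-a1, Hba-a2 and Hba-x in each table, had 216 and 336 FPKM in the positive and negative foot libraries and 1015 and 8249 FPKM in the positive and negative back libraries. Alas2, the first enzyme of heme synthesis in red cells, was listed at 0 in both foot libraries and had 3.28 and 12.7 FPKM in the positive and negative back libraries. Keratinocyte markers summed to 7.56 and 0 FPKM in the positive and negative foot libraries (8 markers, Krt5 and Krt14 at 0) and 29.7 and 10.7 FPKM in the positive and negative back libraries (5 with an entry). Skeletal muscle markers and Schwann cell and melanocyte markers each summed to at most 1.55 FPKM in any library. Of 11 genes induced by tissue dissociation 8 were below 0 and 3 above in the foot sort, and of 8 measured in the back sort 7 were below 0 and 1, Egr1, above. Fos, which had the lowest back sort ratio of the list, stood at 8.59 and 40.5 FPKM in the positive and negative foot libraries and 32.0 and 99.3 FPKM in the positive and negative back libraries. The part of these cells and genes in the values below was not tested.

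Promoter motifs differed in frequency between the phases, and 7 promoters are shown as examples of G2/M and S phase genes described below. They were chosen after the values were seen and include genes with the lowest ratio of the members compared. These are Plk1 for foot against back with the negative label, and Mcm5 in the back sort. The CHR (cell cycle genes homology region), bound by MuvB complexes, was searched as TTTGAA or TTCGAA. The CCAAT box, bound by NF-Y, was searched as CCAAT, and the E2F motif as TTTCCCGC, TTTGGCGC, TTTCGCGC or TTTGCCGC. All were searched on both strands in 250 bases before to 50 bases after each RefSeq start on GRCm38.p6, where 39 of the 50 members had a promoter (43 promoters in all). Capitals below mark every match, and where 2 E2F matches overlap (Mcm5) they form 1 run of capitals. The 4 G2/M promoters come first.
Plk1, chr7:122159185-122159484, + strand: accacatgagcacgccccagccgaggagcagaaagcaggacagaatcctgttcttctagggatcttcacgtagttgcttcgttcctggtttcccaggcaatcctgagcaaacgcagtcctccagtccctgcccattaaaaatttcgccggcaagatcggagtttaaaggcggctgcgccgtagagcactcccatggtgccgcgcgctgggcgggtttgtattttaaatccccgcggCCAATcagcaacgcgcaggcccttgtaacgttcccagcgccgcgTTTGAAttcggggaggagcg
Mki67, chr7:135716330-135716629, - strand: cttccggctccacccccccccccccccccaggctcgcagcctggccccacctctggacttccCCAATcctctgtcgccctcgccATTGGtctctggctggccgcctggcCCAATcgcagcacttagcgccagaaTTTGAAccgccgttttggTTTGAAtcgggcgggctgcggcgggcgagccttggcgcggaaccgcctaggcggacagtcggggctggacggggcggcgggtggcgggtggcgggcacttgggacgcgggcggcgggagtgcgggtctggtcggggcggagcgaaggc
Kif11, chr19:37376132-37376431, + strand: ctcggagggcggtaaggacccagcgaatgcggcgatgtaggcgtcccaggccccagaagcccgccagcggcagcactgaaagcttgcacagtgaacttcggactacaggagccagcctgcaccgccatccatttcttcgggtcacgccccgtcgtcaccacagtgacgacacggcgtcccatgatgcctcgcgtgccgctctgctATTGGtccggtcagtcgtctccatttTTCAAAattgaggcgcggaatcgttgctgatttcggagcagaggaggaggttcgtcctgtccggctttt
Ccnb1, chr13:100786437-100786736, - strand: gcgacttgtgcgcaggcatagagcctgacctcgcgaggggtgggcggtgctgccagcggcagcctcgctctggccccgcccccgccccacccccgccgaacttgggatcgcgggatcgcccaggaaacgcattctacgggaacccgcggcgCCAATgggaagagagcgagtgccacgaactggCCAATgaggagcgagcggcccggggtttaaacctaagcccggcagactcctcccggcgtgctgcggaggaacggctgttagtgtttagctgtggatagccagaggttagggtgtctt
The 3 S phase promoters follow.
Mcm3, chr1:20820263-20820562, - strand: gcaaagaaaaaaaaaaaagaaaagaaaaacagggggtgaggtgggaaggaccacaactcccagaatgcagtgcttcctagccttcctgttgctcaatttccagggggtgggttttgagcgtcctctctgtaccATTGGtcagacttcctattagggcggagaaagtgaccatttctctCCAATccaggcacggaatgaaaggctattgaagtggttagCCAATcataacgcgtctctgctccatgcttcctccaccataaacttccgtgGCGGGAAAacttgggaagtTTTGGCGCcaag
Mcm5, chr8:75109259-75109558, + strand: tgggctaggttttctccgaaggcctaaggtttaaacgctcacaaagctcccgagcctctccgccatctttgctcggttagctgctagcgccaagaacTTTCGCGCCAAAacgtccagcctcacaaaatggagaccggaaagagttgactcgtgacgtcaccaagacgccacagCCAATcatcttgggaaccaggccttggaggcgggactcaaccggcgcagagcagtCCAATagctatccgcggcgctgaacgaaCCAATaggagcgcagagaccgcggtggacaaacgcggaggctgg
Cdc6, chr11:98907901-98908200, + strand: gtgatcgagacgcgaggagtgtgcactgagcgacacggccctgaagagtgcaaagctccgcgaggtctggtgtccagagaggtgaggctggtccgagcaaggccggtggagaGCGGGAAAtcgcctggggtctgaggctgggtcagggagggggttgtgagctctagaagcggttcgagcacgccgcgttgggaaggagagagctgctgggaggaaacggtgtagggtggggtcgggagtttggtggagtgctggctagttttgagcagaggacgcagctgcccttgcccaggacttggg
The CHR letters were found in 20 of 24 G2/M promoters (83.3%), 2 of 12 S phase promoters (16.7%) and 0 of 7 G1 promoters, against 17.6% of 21378 promoters of coding genes. The CHR and the CCAAT box occurred together in 18 of 24 G2/M promoters (75%), against 7.11% of all. The E2F letters were found in 6 of 12 S phase promoters (50%), 1 of 24 G2/M promoters (4.17%) and 1 of 7 G1 promoters (14.3%), against 2.84% of all. Plk1 held 1 CHR and 1 CCAAT box, Mki67 held 2 CHR and 3 CCAAT boxes, and Kif11 held 1 of each. Ccnb1 held 2 CCAAT boxes and no CHR in this window, and Cdc6 held 1 E2F motif alone. A match is a run of letters and not a measured binding site.

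All 43 members were detected in all 4 libraries, none listed at 0. In G1, Cdk4, the kinase partner of D-type cyclins, was highest, at 293 and 379 FPKM in the positive and negative foot libraries and 322 and 331 FPKM in the positive and negative back libraries. Its value lay above its own bounds in 3 of the 4 libraries, so its order across libraries is uncertain. Cdk6, the alternative kinase, was the lowest of the phase by mean level, at 2.27 and 1.61 FPKM in the positive and negative foot libraries and 3.16 and 2.98 FPKM in the positive and negative back libraries. The S phase genes ran from Tyms, which makes thymidylate, at 88.9 and 120 FPKM in the positive and negative foot libraries and 82.2 and 94.4 FPKM in the positive and negative back libraries, down to the helicase loader Cdc6. Pcna, the sliding clamp of the replication fork, had 100.3 and 92.8 FPKM in the positive and negative foot libraries and 62.7 and 64.1 FPKM in the positive and negative back libraries. Pcna lay just above its own bounds in the negative foot and positive back libraries. Tyms lay above its own bounds in every library but the positive foot one, and Ccnd3 in the positive back library. Among G2/M genes Birc5, the survivin subunit of the chromosomal passenger complex, was highest by mean level, followed by Cdk1 and the centromeric histone Cenpa. Cdk1, the mitotic kinase, had 99.9 FPKM (89.3 to 111) and 84.7 (78.0 to 91.9) in the positive and negative foot libraries and 91.5 (87.4 to 96.3) and 82.4 (78.7 to 87.5) in the positive and negative back libraries. Cenpa stood at 54.3 and 40.5 FPKM in the positive and negative foot libraries and 58.3 and 41.9 FPKM in the positive and negative back libraries, higher in the positive library of each skin. Cenpe, a centromere kinesin, was lowest of the phase in every library, from 0.341 FPKM in the negative foot library to 4.00 FPKM in the positive back library.

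**Figure D1:**
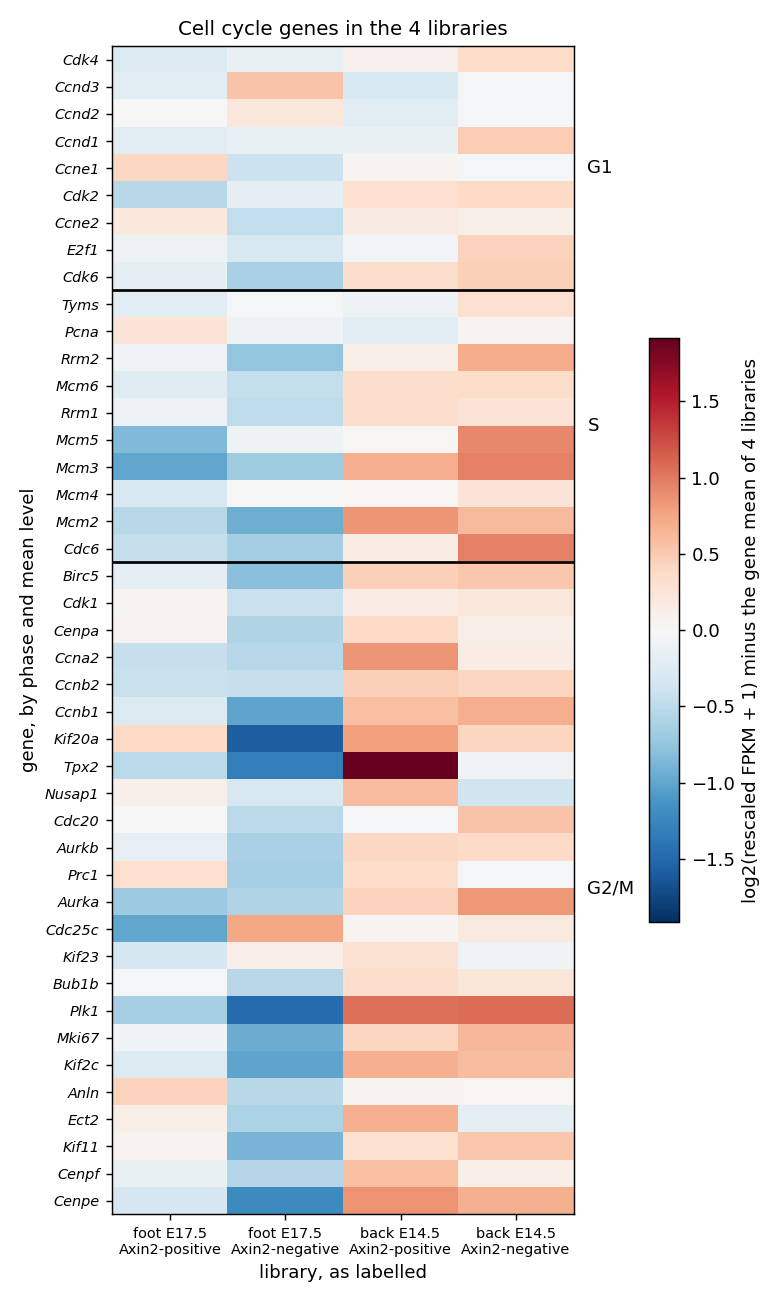
Each row is 1 of the 43 cell cycle genes, grouped by phase and ordered by mean level, each column 1 library, and the colour the log2(rescaled FPKM + 1) minus the mean of the gene's 4 values. The negative foot column is blue over most S phase and G2/M rows, and Tpx2 in the positive back library and Cdc25c in the negative foot library stand against the rows around them.

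Log2 ratios below are of FPKM divided by a factor for each library (1.08, 1.27, 0.923 and 0.791 for the positive foot, negative foot, positive back and negative back libraries), after adding 1, and the added 1 understates changes of low genes. The ± after a ratio combines the bounds of the libraries compared. Without the factors the median over all coding genes was -0.23 for positive against negative in the foot, 0.22 in the back, 0.28 for foot against back with the positive label and 0.73 with the negative label, so ratios are read relative to that shift. A gene counts as at least 2-fold apart where the log2 ratio is 1 or more in size and the larger FPKM is 5 or more.

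Within the foot, mitotic genes were the phase that stood higher in the positive library. Of 24 G2/M genes 21 were above 0 and 3 below, with a median log2 ratio of 0.63 (0.40 as deposited), where the median over 5640 coding genes was -0.01. S phase genes had a median of 0.20, with 6 above and 4 below 0, which is -0.01 with FPKM as deposited and 0.01 with members of at least 5 FPKM in both libraries. G1 genes had a median of -0.06, with 4 above and 5 below, which is -0.29 as deposited and 0.08 without genes whose value lay outside its own bounds. For 14 of the 24 G2/M genes the rescaled bounds of the positive library lay wholly above those of the negative library, against 21.8% of coding genes, and for 2 they lay below, against 21.1%. By the 2-fold rule only Kif20a was higher and only Cdc25c lower among all 43 genes, against 10.8% and 10.7% of coding genes. The difference was thus one of many genes that stayed under this rule, with the added 1 that understates changes of low genes. With 0.1 added in place of 1, 4 of the 43 genes were higher.

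Kif20a, a kinesin of the central spindle, had 29.6 FPKM (25.8 to 33.4) in the positive and 8.01 (7.04 to 8.99) in the negative foot library, a log2 ratio of 1.96 ± 0.24. In the back it had 33.7 FPKM (32.3 to 35.3) in the positive and 22.3 (21.0 to 23.6) in the negative library, so the negative foot library is the low one of the 4. Mki67, the proliferation antigen that coats mitotic chromosomes, had 5.77 FPKM (5.05 to 6.500) in the positive and 3.15 (2.81 to 3.48) in the negative foot library, a log2 ratio of 0.87 ± 0.19. Kif11, the motor that separates spindle poles, had 4.93 FPKM (3.96 to 5.87) in the positive and 2.39 (1.96 to 2.82) in the negative foot library, a log2 ratio of 0.95 ± 0.29. In both genes the bounds of the foot libraries do not overlap. The cytokinesis genes Anln and Prc1 each had a log2 ratio of 0.97, with errors of ± 0.25 and ± 0.42. Plk1, the polo kinase of mitotic entry and exit, had 3.64 FPKM (2.42 to 4.84) in the positive and 1.84 (1.26 to 2.40) in the negative foot library, a log2 ratio of 0.84 ± 0.46. Ccnb1, the B-type cyclin that activates Cdk1, had 22.2 FPKM (18.4 to 26.0) in the positive and 15.2 (13.3 to 17.03) in the negative foot library, a log2 ratio of 0.74 ± 0.29.

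A few mitotic genes did not follow. Cdc25c, the phosphatase that activates Cdk1, had 4.18 FPKM (2.60 to 5.78) in the positive and 19.5 (13.9 to 25.1) in the negative foot library, a log2 ratio of -1.74 ± 0.60. Its back values were 8.42 FPKM (7.55 to 9.30) in the positive and 7.92 (7.01 to 8.90) in the negative library, so the negative foot library is the high one here. Kif23, another central spindle kinesin, had 7.62 FPKM (5.96 to 9.30) in the positive and 12.9 (11.5 to 14.4) in the negative foot library, a log2 ratio of -0.46 ± 0.32. The A-type cyclin Ccna2 and the B-type cyclin Ccnb2 had log2 ratios of 0.10 ± 0.24 and 0.01 ± 0.29, within their bounds, and both ratios are negative as deposited.

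Among G1 genes in the foot the bounds lay apart for Ccnd3 and Ccnd2 only, both lower. The D-type cyclin Ccnd3 had 40.4 FPKM (35.8 to 45.2) in the positive and 82.0 (76.5 to 87.7) in the negative foot library, a log2 ratio of -0.76 ± 0.19. Ccnd2 had 42.6 FPKM (39.7 to 45.4) in the positive and 59.0 (56.9 to 61.7) in the negative foot library, a log2 ratio of -0.23 ± 0.11, and Ccnd1 a log2 ratio of -0.06 ± 0.22. The E-type cyclins Ccne1 and Ccne2 had log2 ratios of 0.81 ± 0.61 and 0.69 ± 0.64, with overlapping bounds. Among S phase genes the bounds lay apart for Rrm2 (log2 ratio 0.70 ± 0.23), Rrm1 (0.37 ± 0.18) and Pcna (0.35 ± 0.22), which make or use nucleotides and the sliding clamp, and for the helicase subunit Mcm5 in the other direction (-0.75 ± 0.30).

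Within the back, the mitotic genes showed a smaller shift, and the S phase and G1 genes lay lower in the positive library after rescaling. G2/M genes had a median log2 ratio of 0.06 (0.27 as deposited), with 15 above and 9 below 0. Their bounds lay apart and higher for 9, against 24.2% of coding genes, and apart and lower for 3, against 21.3%. S phase genes had a median of -0.26 (-0.05 as deposited), with 2 above and 8 below 0, and for 7 of 10 the bounds lay apart and lower, against 21.3%. G1 genes had a median of -0.18, which is 0.04 as deposited, with 2 above and 7 below 0. For 5 of the 9 G1 genes the bounds lay apart and lower, and for 0 higher. Over 4516 coding genes the median was 0.01. By the 2-fold rule 1 of the 43 genes was higher and 0 lower, against 4.19% and 3.37% of coding genes, and 3 were higher as deposited.

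That gene was Tpx2, which activates Aurora A kinase on the spindle. It had 57.5 FPKM (52.0 to 63.1) in the positive and 11.9 (10.9 to 13.1) in the negative back library, against 11.5 (9.31 to 15.5) in the positive and 7.24 (6.02 to 9.17) in the negative foot library. The log2 ratio in the back was 1.98 ± 0.18, and the positive back library stands alone at the high end. The Tpx2 entry spanned 53122 bases of chromosome 2 (mm9) in the positive and 52676 bases in the negative back library, and 47358 bases in each foot library. Entry spans differed between libraries for 20 members. Among them was Kif20a, at 8927 bases in the positive and 9520 bases in the negative foot library. The part of these spans in the FPKM was not tested. Aurka, the partner of Tpx2, had a log2 ratio of -0.38 ± 0.17 in the back. Nusap1, a microtubule-bundling spindle protein, had 29.3 FPKM (28.1 to 30.9) in the positive and 12.3 (11.2 to 13.4) in the negative back library, a log2 ratio of 0.98 ± 0.14. Ccna2 had 71.2 FPKM (68.5 to 74.6) in the positive and 37.3 (35.1 to 39.6) in the negative back library, a log2 ratio of 0.70 ± 0.11. Cdc20, the activator of the anaphase-promoting complex, went the other way, at 15.7 FPKM (14.3 to 17.1) in the positive and 20.6 (19.0 to 22.3) in the negative back library, a log2 ratio of -0.58 ± 0.17.

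Replication genes of the back were led by Mcm5, at 13.6 FPKM (12.6 to 14.54) in the positive and 22.3 (20.9 to 23.7) in the negative library, a log2 ratio of -0.89 ± 0.13. Cdc6 had 4.83 FPKM (4.25 to 5.42) in the positive and 7.94 (7.20 to 8.73) in the negative back library, a log2 ratio of -0.83 ± 0.19. Rrm2, the regulated subunit of ribonucleotide reductase, had 38.1 FPKM (36.3 to 40.3) in the positive and 50.1 (48.1 to 52.1) in the negative back library, a log2 ratio of -0.61 ± 0.09. Mcm2, another subunit of the same helicase as Mcm5, went the other way with 14.1 FPKM (13.3 to 15.0) in the positive and 10.2 (9.09 to 10.7) in the negative back library, a log2 ratio of 0.23 ± 0.14. The Mcm subunits therefore did not move as 1 block. Among G1 genes Ccnd1, a known Wnt-responsive cyclin in several tissues, had 21.7 FPKM (20.8 to 22.6) in the positive and 29.1 (26.96 to 31.3) in the negative back library, a log2 ratio of -0.63 ± 0.12.

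**Figure D2:**
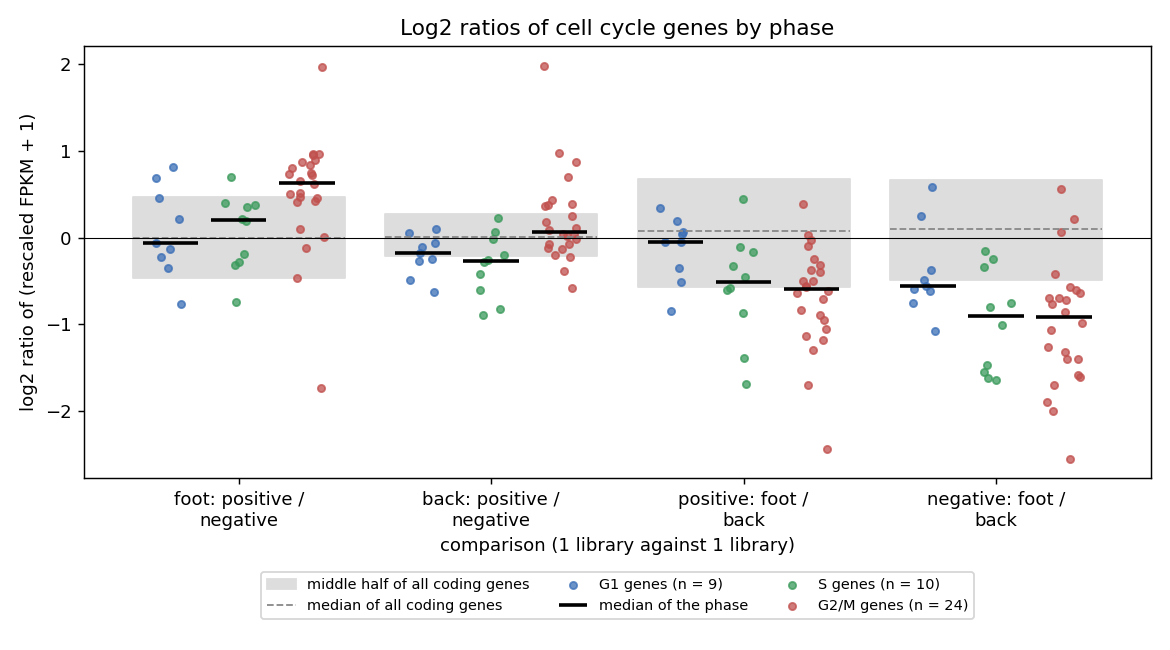
Points are log2 ratios of the 9 G1, 10 S phase and 24 G2/M genes in each comparison of 1 library with 1 library, black bars are phase medians, and the grey band and dashed line are the interquartile range and the median of coding genes of at least 5 FPKM. The G2/M median is 0.63 in the foot and 0.06 in the back, and S phase and G2/M medians lie from -0.51 to -0.92 in the foot against back comparisons.

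Foot against back, S phase and G2/M genes stood lower in the foot under both labels. With the positive label, G2/M genes had a median log2 ratio of -0.59, with 2 above and 22 below 0, and S phase genes one of -0.51, with 1 above and 9 below. With the negative label, G2/M genes had a median of -0.92, with 3 above and 21 below 0, and S phase genes one of -0.91, with 0 above and 10 below. The medians over coding genes were 0.08 and 0.10 (positive, then negative label). G1 genes had medians of -0.04 with the positive label and -0.56 with the negative label, which are 0.16 and 0.07 with FPKM as deposited. As deposited the S phase medians were -0.30 and -0.25 and the G2/M medians -0.39 and -0.26 (positive, then negative label), so these kept their direction while most other genes stood higher in the foot.

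With the positive label 7 of the 43 genes were at least 2-fold lower in the foot and 0 higher, so 16.28% of the members were lower, near the 14.51% of coding genes that were lower (785 of 5409), where 16.45% were higher and 31.0% apart in either direction. With the negative label 15 were at least 2-fold lower and 0 higher, against 12.1% and 16.2%. Of the 43 genes, 39 reached 5 FPKM with the positive label and 37 with the negative label, and only these could be called. As deposited, the negative label gave 7 lower and 2 higher. With the requirement of at least 5 FPKM in both libraries it gave 9 lower. The rescaled bounds lay apart and lower in the foot for 26 of 43 genes with the positive label and 34 of 43 with the negative label, against 28.2% and 29.9% of coding genes. They lay apart and higher for 3 and 2 genes, against 31.2% and 36.5%.

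Plk1 showed the lowest ratio of all with the negative label. It had 3.64 and 1.84 FPKM in the positive and negative foot libraries and 12.2 FPKM (10.9 to 13.4) and 10.5 FPKM (9.63 to 11.5) in the positive and negative back libraries, with foot against back log2 ratios of -1.70 ± 0.40 (positive label) and -2.55 ± 0.29 (negative label). Both foot libraries lie below both back libraries without overlap of the bounds. The Plk1 entry lies at chr7:129302951-129313389 and that of Mcm3 at chr1:20793055-20810359 (mm9). Aurka, the Aurora kinase of centrosomes and spindle poles, had 6.42 FPKM (3.72 to 9.38) and 8.33 (6.64 to 10.004) in the positive and negative foot libraries and 13.2 (12.1 to 14.4) and 15.0 (13.7 to 16.3) in the positive and negative back libraries. The foot values were again below the back values. Tpx2 had log2 ratios of -2.44 ± 0.36 with the positive label and -1.26 ± 0.29 with the negative label, the first of which rests on the high value in the positive back library. Ccna2 had 33.3 FPKM (28.5 to 38.4) and 36.7 (33.4 to 40.0) in the positive and negative foot libraries, which gave log2 ratios against the back of -1.29 ± 0.22 and -0.69 ± 0.15 (positive, then negative label). Cenpe was lower in the foot by the bounds under both labels, at 1.45 FPKM (1.02 to 1.88) and 0.341 (0.222 to 0.454) in the positive and negative foot libraries and 4.00 (3.72 to 4.30) and 2.93 (2.67 to 3.19) in the positive and negative back libraries, all too low for the 2-fold rule.

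Other mitotic genes were clearly lower in the negative foot library and closer to the back in the positive one. Mki67 had 7.35 FPKM (6.99 to 7.75) and 7.46 (6.96 to 7.97) in the positive and negative back libraries, and foot against back log2 ratios of -0.50 ± 0.17 and -1.59 ± 0.14 (positive, then negative label). Birc5 had 93.2 FPKM (81.7 to 105) and 71.4 (65.1 to 77.9) in the positive and negative foot libraries and 124 (118 to 131) and 112 (105 to 118) in the positive and negative back libraries, with log2 ratios of -0.63 ± 0.19 and -1.32 ± 0.15. Ccnb1 had 34.6 FPKM (33.2 to 36.6) and 32.4 (29.6 to 34.6) in the positive and negative back libraries, with log2 ratios of -0.83 ± 0.25 and -1.70 ± 0.20 in the same order of labels. All 3 were lowest in the negative foot library. Kif11 had 5.16 and 5.20 FPKM in the positive and negative back libraries, and log2 ratios of -0.24 ± 0.26 and -1.40 ± 0.20. Kif20a had log2 ratios of -0.40 ± 0.19 with the positive label and -2.00 ± 0.17 with the negative label. Cdc20 had 18.7 FPKM (14.8 to 22.7) and 15.1 (12.9 to 17.4) in the positive and negative foot libraries, with log2 ratios of 0.03 ± 0.32 and -1.07 ± 0.23 in that order of labels. The microtubule depolymerase Kif2c had 4.62 FPKM (3.13 to 8.09) and 2.75 (1.97 to 4.01) in the positive and negative foot libraries and 8.54 (7.79 to 9.53) and 6.84 (6.20 to 7.95) in the positive and negative back libraries, with log2 ratios of -0.95 ± 0.58 and -1.61 ± 0.39. Cdc25c differed from these, with a log2 ratio of -1.05 ± 0.47 with the positive label and 0.56 ± 0.43 with the negative label. At the edge of the 2-fold rule with the negative label, Mcm5 (-1.01) and Cdc20 (-1.07) lay just inside and Aurkb (-0.98) just outside.

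The Mcm subunits divided in the foot against back comparison. Mcm3 had 5.52 FPKM (4.18 to 6.79) and 8.42 (7.06 to 9.70) in the positive and negative foot libraries and 17.2 (15.4 to 17.4) and 18.0 (16.9 to 19.2) in the positive and negative back libraries. Its log2 ratios were -1.68 ± 0.30 and -1.64 ± 0.22 (positive, then negative label). Mcm2 had 5.63 FPKM (4.38 to 6.87) and 4.76 (3.99 to 5.53) in the positive and negative foot libraries, with log2 ratios against the back of -1.39 ± 0.28 and -1.55 ± 0.22. Both subunits were lower in each foot library than in each back library. Mcm5 had 8.21 FPKM (6.49 to 9.96) and 17.2 (15.5 to 18.9) in the positive and negative foot libraries, with log2 ratios of -0.86 ± 0.29 and -1.01 ± 0.16. Mcm4 and Mcm6 were closer, at -0.33 ± 0.24 and -0.58 ± 0.16 under the positive label and -0.24 ± 0.17 and -0.80 ± 0.12 under the negative label, on the log2 scale. These subunits form 1 ring in the protein complex.

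Of the other S phase genes, Rrm2 had 39.5 FPKM (34.3 to 44.8) and 28.3 (25.6 to 31.2) in the positive and negative foot libraries, with log2 ratios against the back of -0.17 ± 0.20 and -1.47 ± 0.15 (positive, then negative label). Cdc6 had 3.33 FPKM (1.81 to 4.97) and 3.30 (2.48 to 4.12) in the positive and negative foot libraries, with log2 ratios of -0.61 ± 0.55 and -1.62 ± 0.29. Both were lower with bounds apart for the negative label and had overlapping bounds for the positive label. Pcna was the exception among S phase genes, with log2 ratios of 0.45 ± 0.20 and -0.15 ± 0.15 (positive, then negative label). Each ratio uses a value above its own bounds, in the positive back and the negative foot library. In G1, Ccnd2 had log2 ratios of 0.20 ± 0.10 and 0.25 ± 0.07, and Ccnd3 of 0.07 ± 0.18 and 0.58 ± 0.14 in the same order of labels. Ccnd2 stood at 31.7 and 30.8 FPKM and Ccnd3 at 33.0 and 33.8 FPKM in the positive and negative back libraries. Cdk2, the partner of cyclin E and cyclin A, was lower, with log2 ratios of -0.85 ± 0.30 and -0.56 ± 0.20, although the second is 0.07 as deposited.

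**Figure D3:**
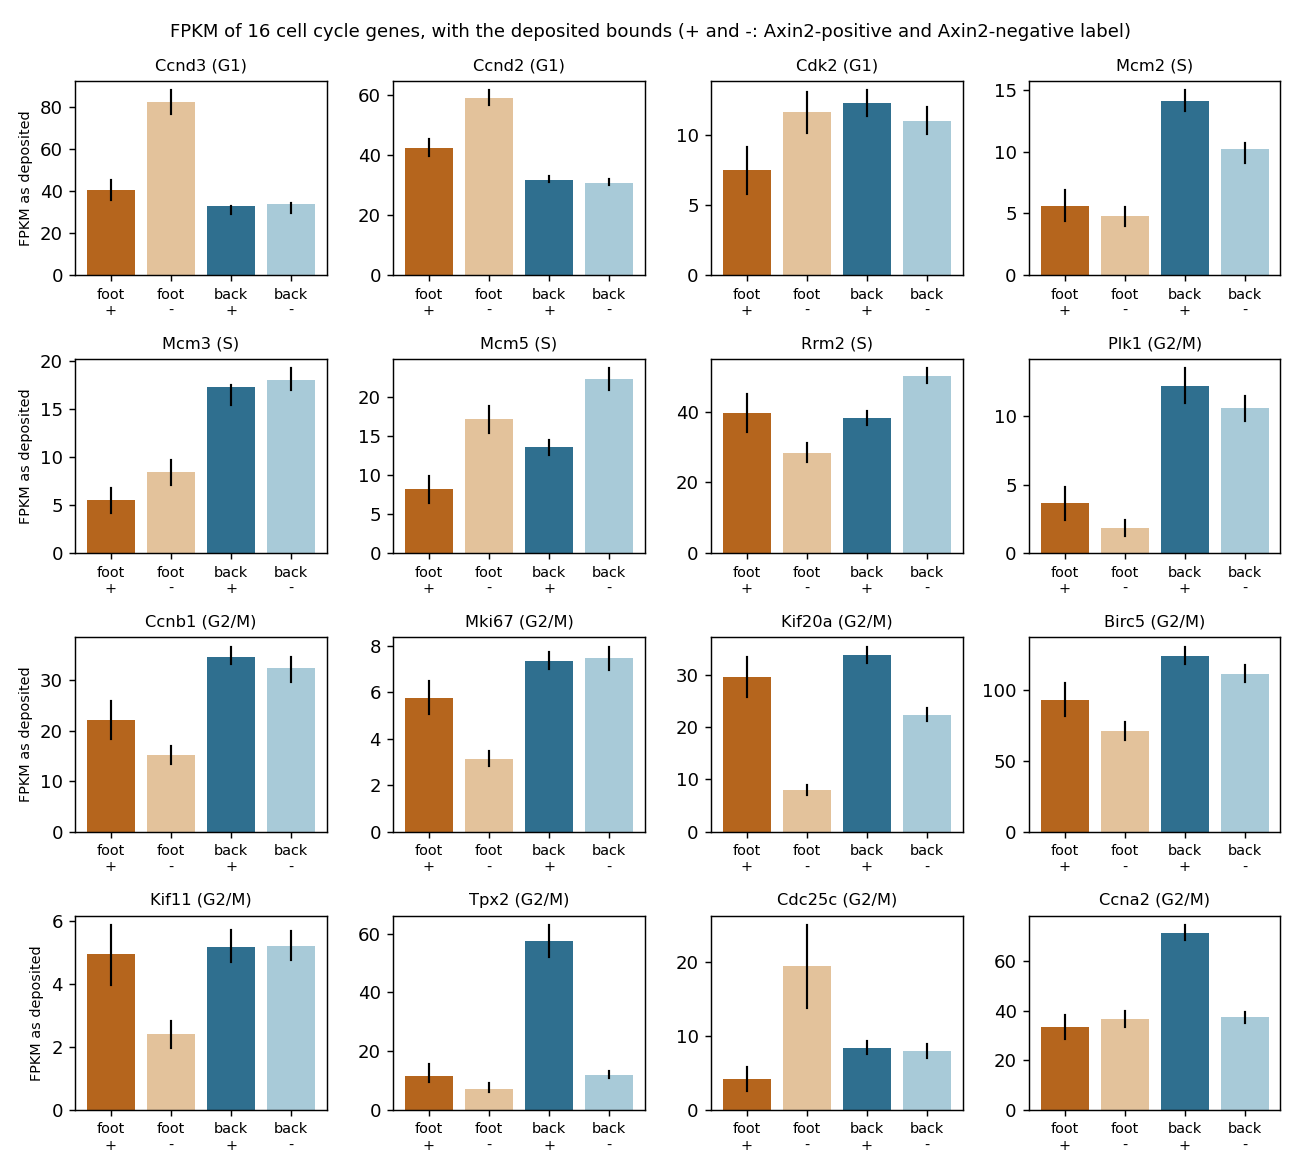
Bars are FPKM as deposited of 16 cell cycle genes in the positive and negative foot and the positive and negative back libraries, with vertical lines from the lower to the upper deposited bound. Plk1, Mcm2 and Mcm3 are lower in both foot libraries than in both back libraries, Mki67, Kif20a and Kif11 are lowest in the negative foot library, and Ccnd3 is highest in it.

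Differences between phases within a comparison do not depend on the library factors beyond the added 1. The G2/M median exceeded the G1 median by 0.69 for positive against negative in the foot and by 0.24 in the back, on the log2 scale. It exceeded the S phase median by 0.43 in the foot and 0.33 in the back. In the foot against back comparisons the G2/M median lay 0.08 below the S phase median with the positive label and 0.01 below it with the negative label. Both lay below the G1 median, by a difference of -0.55 for G2/M and -0.47 for S phase with the positive label, and of -0.35 and -0.34 with the negative label. None of these differences was tested.

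The foot sort ratio minus the back sort ratio had a median of 0.48 for G2/M genes, 0.23 for S phase genes and 0.57 for G1 genes (0.14 for G1 with members of at least 5 FPKM in all 4 libraries), where the median over 5892 coding genes was -0.03. As deposited the medians were 0.04, -0.22 and 0.12, beside -0.45 for coding genes. By 2-fold or more, the foot ratio exceeded that of the back in 6 of the 43 genes and fell short of it in 2, against 26.7% of coding genes in either direction (12.71% above and 13.99% below), and the counts were 1 and 5 as deposited. The largest value above was that of Kif20a, at 1.60 ± 0.26, and the lowest that of Cdc25c, at -1.61 ± 0.64. Tpx2 had -1.18 ± 0.46 through its high value in the positive back library. Between the skins, which share no library, 18 genes were above 0 in both sorts, 11 below 0 in both, 13 above 0 in the foot and below 0 in the back, and 1 the reverse, which was Kif23. Of the 24 G2/M genes 14 were above 0 in both sorts and 7 in the foot alone, with Pearson r 0.14 across these genes, which share their libraries and are not replicates.

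**Figure D4:**
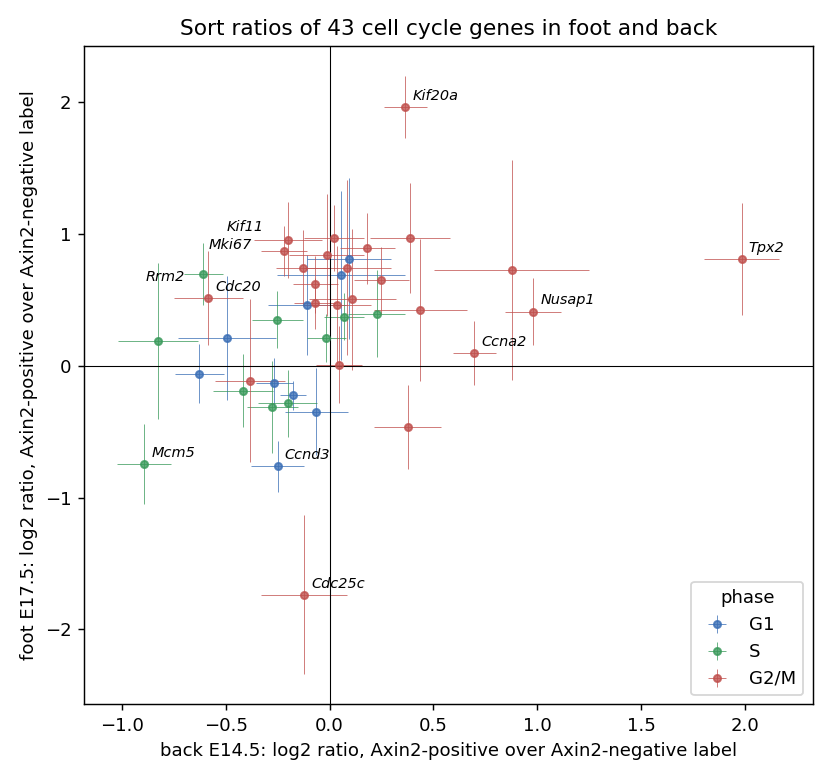
Each point is 1 of the 43 genes, with its log2 ratio of the positive over the negative library in the back on the horizontal axis and in the foot on the vertical axis, and lines for the error from the deposited bounds. Most G2/M points lie above 0 on the foot axis and near 0 on the back axis, with Kif20a, Tpx2 and Cdc25c outside the cloud.

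Across the 5 comparisons 17 of the 43 genes were at least 2-fold apart in 1 or more, and 26 in none, where 50.7% of coding genes were apart in 1 or more. The 26 were 9 G1 genes, 5 S phase genes (Mcm4, Mcm6, Pcna, Rrm1 and Tyms) and 12 G2/M genes (Anln, Aurkb, Bub1b, Ccnb2, Cdk1, Cenpa, Cenpe, Cenpf, Ect2, Kif23, Nusap1 and Prc1). The minimum of 5 FPKM alone kept out Cenpe and Cdk6. The Cdk6 log2 ratio was -1.08 ± 0.24 for foot against back with the negative label. Among the 26, the checkpoint kinase Bub1b had log2 ratios of 0.50 in the foot sort and 0.11 in the back sort, and the Aurora kinase Aurkb of 0.46 and 0.04.

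The 5 members that shared an entry were read as entries and not as genes. The entry of Top2a, the topoisomerase that untangles chromosomes, also holds a small nucleolar RNA, with 74.8 FPKM (64.1 to 85.5) and 10.9 (9.98 to 13.7) in the positive and negative foot libraries and 25.6 (23.9 to 27.1) and 22.5 (20.9 to 24.0) in the positive and negative back libraries. The entry of Foxm1, a transcription factor of mitotic genes, also holds 4933413G19Rik, with 6.21 FPKM (3.75 to 8.68) and 3.94 (3.08 to 5.15) in the positive and negative foot libraries and 6.97 (6.46 to 7.66) and 5.25 (4.68 to 5.92) in the positive and negative back libraries. Both entries were lowest in the negative foot library. The Mcm7 entry, with the intronic Mir25 and Mir93, stood at 11.3 and 7.52 FPKM in the positive and negative foot libraries and 9.51 and 10.4 FPKM in the positive and negative back libraries. Ube2c, the ubiquitin-conjugating enzyme of the anaphase-promoting complex, had an entry of its own in 3 tables, at 58.1 FPKM in the negative foot library and 123 and 93.2 FPKM in the positive and negative back libraries, each above its own bounds. Its foot against back log2 ratio with the negative label was -1.35 ± 0.17. In the positive foot library Ube2c shared an entry with Dnttip1, at 97.0 FPKM (85.8 to 109). Bub1, a spindle checkpoint kinase, had 18.4 FPKM (10.6 to 21.5) in the positive foot library and 9.07 (7.77 to 10.2) and 7.05 (5.86 to 8.18) in the positive and negative back libraries.

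Lists of other cell cycle genes were read beside the members. Of 28 other replication genes 16 were above and 12 below 0 in the foot sort, with a median log2 ratio of 0.09 (-0.12 as deposited), with 5 higher by 2-fold or more and 0 lower, beside 10.8% and 10.7% of coding genes. In the back sort 5 were above and 23 below 0, with a median of -0.21 (0.00 as deposited), and only Uhrf1 was at least 2-fold lower, beside 3.37% of coding genes. Of 38 other mitotic genes 25 were above and 13 below 0 in the foot sort, with a median of 0.35 (0.13 as deposited), 6 at least 2-fold higher and 3 (Nek2, Smc4 and Ckap2) lower, beside 10.8% and 10.7% of coding genes. In the back their median was 0.15, with 26 above and 12 below and none 2-fold apart. Foot against back, the other mitotic genes had medians of -0.56 and -0.81 (positive, then negative label), and the other replication genes of -0.28 and -0.67. As deposited these were -0.37 and -0.22 for mitotic genes and -0.09 and -0.06 for replication genes, the last with 14 above and 14 below 0. Among them the spindle checkpoint gene Mad2l1 stood at 10.5 and 22.4 FPKM in the positive and negative foot libraries and 37.0 and 45.7 FPKM in the positive and negative back libraries. Gmnn, the inhibitor of origin relicensing, was low in the negative foot library alone, at 34.0 and 13.0 FPKM in the positive and negative foot libraries and 28.0 and 31.7 FPKM in the positive and negative back libraries.

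Over 10 genes for cyclin-dependent kinase inhibitors and pocket proteins the median log2 ratio was 0.03 in the foot sort and 0.00 in the back sort, and 0.21 and 0.23 for foot against back with the positive and the negative label. Cdkn1c, an inhibitor found in cells leaving the cycle, had 320 FPKM (304 to 337) and 966 (954 to 1002) in the positive and negative foot libraries and 103 (99.4 to 108) and 225 (221 to 234) in the positive and negative back libraries. Its log2 ratio was -1.35 ± 0.08 in the foot sort and -1.34 ± 0.07 in the back sort, and 1.40 ± 0.09 and 1.41 ± 0.06 for foot against back with the positive and the negative label. It was thus highest in the negative foot library, where Plk1, Mki67, Kif11 and Ccnb1 were lowest and Cdc25c was highest. The G2/M medians were 0.63 in the foot sort and 0.06 in the back sort, and any relation to Cdkn1c was not tested. Cdkn1a, an inhibitor induced by p53, had 5.28 and 3.65 FPKM in the positive and negative foot libraries and 4.13 and 9.99 FPKM in the positive and negative back libraries, highest in the negative back library. Cdkn2c, an inhibitor of Cdk4 and Cdk6, went the other way from Cdkn1c in the foot, at 21.1 FPKM (16.7 to 25.6) in the positive and 11.2 (9.15 to 13.3) in the negative library. Rb1, the retinoblastoma pocket protein, was at least 2-fold higher in the foot, at 27.8 FPKM (17.1 to 43.7) and 24.6 (17.3 to 32.9) in the positive and negative foot libraries and 8.64 (7.49 to 11.2) and 6.33 (5.47 to 8.49) in the positive and negative back libraries. Over 9 other E2F and DP factors the median log2 ratio was -0.35 in the foot sort, -0.20 in the back sort, and -0.61 and -0.83 for foot against back with the positive and the negative label. E2f5 had 6.29 FPKM in the positive and was listed at 0 in the negative foot library, the only 2-fold difference of that list in the foot sort, with 6.31 and 3.77 FPKM in the positive and negative back libraries. E2f4, which acts in the repressive DREAM complex, was lower in the foot, at 2.75 and 4.55 FPKM in the positive and negative foot libraries and 9.88 and 9.87 FPKM in the positive and negative back libraries.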

How the data were processed

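Messenger RNA of sorted dermal cells was measured in 4 libraries, 1 per group. TopHat, Cufflinks and mm9 are named in the submitters' processing notes; versions, settings and annotation were not given in the sources used here. Per the file headers, the authors deposited FPKM with confidence bounds and a status for each entry. Some values lie outside their own bounds.

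Entries with 1 gene name and status OK were used, entries of the same name were summed, and entries naming several genes, or none, stayed out of the comparisons. In the positive foot library 22 gene names altered to dates were left out. Read depth is unknown. Coding status came by symbol from GENCODE vM21 and RefSeq (GRCm38); its coordinates were not used with mm9. FPKM was divided by median-ratio factors over the coding genes of at least 5 FPKM in all 4 libraries (3120 genes), and log2 ratios were taken after adding 1. With 1 library a group no test was made, so there are no p-values. Calls need a log2 ratio of at least 1 and a larger FPKM of at least 5. The background is the share among coding genes whose larger FPKM is at least 5. Member counts are over all 43, of which 35 to 40 reach 5 FPKM, depending on the comparison. Member counts of bounds lying apart have no such minimum. The members, lists and comparisons were chosen with earlier results of these data known. Named genes are members at least 2-fold apart in any comparison, the 3 highest of each phase by mean level, members whose phase mates moved the other way, and 2-fold genes of the other lists. Other members named (among them Cenpe, Nusap1, Anln, Prc1, Kif23, Ccnb2, Cdk6, Cdk2 and Ccnd1) and the promoters shown were chosen after their values were seen. Alternatives were FPKM as deposited, upper-quartile factors, a pseudocount of 0.1, a minimum of 5 FPKM, and leaving out genes listed at 0 or outside their bounds. Promoters came from RefSeq (GRCm38.p6). Python 3.11.15, pandas 2.3.3 and NumPy 2.4.6 were used.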

Additional observations from a re-analysis of the deposited data

Results flagged for a closer look

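For 5 members the sort ratio was above 0 in the foot and below 0 in the back, with a difference of at least 1 on the log2 scale, against 8.42% of coding genes that met the same rule. With FPKM as deposited 0 members met it. With 1 library a group the difference was not tested, and the Axin2 transcript, at a rescaled log2 ratio of -0.16 ± 0.45, does not separate the foot libraries. The difference of the log2 sort ratios was 1.30 for Rrm2, 1.15 for Kif11, 1.10 for Cdc20, 1.09 for Mki67 and 1.01 for Cdc6. For Cdc6 the foot ratio was 0.19 ± 0.59, so its sign in the foot is within the bounds.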

How the results depend on the processing

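With FPKM as deposited the S phase median for positive against negative in the foot was -0.0057, and the G1 medians were 0.041 in the back, 0.16 for foot against back with the positive label and 0.068 with the negative label, all of opposite sign to the rescaled values; the S phase median of the foot minus back difference was -0.22. Also as deposited, the back S phase and G2/M medians were -0.047 and 0.27, the foot against back medians with the negative label -0.25 (S phase) and -0.26 (G2/M), and the difference medians 0.12 (G1) and 0.039 (G2/M). As deposited, members at least 2-fold apart numbered 2 lower in the foot sort, 3 higher in the back sort, 2 higher and 7 lower for foot against back with the negative label, and 1 higher and 5 lower for the difference. These changes follow from the library factors. With a pseudocount of 0.1, 4 members were higher in the foot sort and 3 in the back sort. With at least 5 FPKM in every library compared, 0 were lower in the foot sort, 9 lower for foot against back with the negative label, and 3 higher and 1 lower for the difference, with fewer genes counted; the G1 median was 0.044 for foot against back with the positive label and 0.14 for the difference. Without values outside their own bounds the foot G1 median was 0.075 and the S phase median for foot against back with the negative label -1.24; the cause was not tested. With at least 5 FPKM the S phase median of the foot sort was 0.01, beside 0.20, and the foot G1 and back G2/M medians were -0.13 and 0.04. Upper-quartile factors reversed none of the 25 results and gave -0.09 for the foot G1 median and 0.04 for the back G2/M median. Leaving out genes listed at 0 could change nothing, since no member was listed at 0. No paired analysis was possible because each group has 1 library, and no replicate could be left out for the same reason. The foot libraries have the wider bounds, so foot ratios of genes under 5 FPKM are the least certain.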
